A study of Mus musculus with 16 samples.

Results

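The GTPases and antigen-processing genes described here are 10 of the 55291 genes in the count table, taken by symbol and followed through all 8 groups of 2 libraries. They comprise 4 guanylate-binding proteins (Gbp2, Gbp3, Gbp6 and Gbp7), 3 immunity-related GTPases (Igtp, Irgm1 and Iigp1), and 3 genes that prepare peptides for MHC class I (Psmb8, Psmb9 and Tap1). All 10 were measured in every library and passed the filter on low counts. The libraries came from polyadenylated RNA of 14 mouse livers and 2 liver tumours.

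The 2 tumours bear the genotype label Arid1a KO/BcatEXON, with neither a time point nor a treatment. The agonist groups are Arid1a KO and WT livers from mice injected with what the labels call an NR1L3 agonist. They are treated as livers of 30 days, although the titles of the WT agonist libraries say 9 days where their other labels say 30. The vehicle (DMSO) groups are Arid1a KO and WT livers at 30 days after tamoxifen, and Arid1a/b DKO, Arid1a KO and WT livers at 9 days. Tamoxifen is the drug that sets off gene deletion in such mice, and the labels used here do not name the Cre driver. They name hepatocytes as the cell type while the design text speaks of whole liver tissue, so the values are read as tissue RNA, in which fewer cells of a type and less RNA per cell cannot be told apart. Each group is stated to hold 2 biological replicates. The p-values set a difference between groups against a spread between replicates that is estimated over all libraries of a model together.

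Interferons bind receptors that activate JAK kinases and, through them, transcription factors that enter the nucleus and switch on a wide set of defence genes. Guanylate-binding proteins and immunity-related GTPases are such genes in mice: they gather on vacuoles that hold parasites or bacteria and help to break them open. Interferon also replaces the catalytic subunits of the standard proteasome with those of the immunoproteasome, whose peptides the TAP transporter carries into the endoplasmic reticulum for loading onto MHC class I. The liver expresses many of these genes in hepatocytes as well as in resident macrophages, and in mouse liver Iigp1 is also known to be transcribed constitutively from a dedicated promoter.

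Gbp2 (chr3:142620602-142638008), Gbp3 (chr3:142560026-142573209) and Gbp7 (chr3:142530342-142550149) lie near each other on chromosome 3 of GRCm38, by GENCODE M21, with Gbp2b between Gbp3 and Gbp2, and Gbp6 lies on chromosome 5 (chr5:105270702-105293698). Igtp (chr11:58199556-58207591) and Irgm1 (chr11:48861968-48871683) are on chromosome 11, and Psmb9 (chr17:34181987-34187764), Tap1 (chr17:34187553-34197225) and Psmb8 (chr17:34197721-34201454) follow one another on chromosome 17. RefSeq promoter windows of GRCm38.p6, which run from 250 bases before a transcription start to 50 after it, were found for 8 of the 10 genes. They were searched on both strands for the letters of an interferon-stimulated response element (GAAA, any 2 bases, then GAAA again, called ISRE-like) and of a gamma-activated site (TTC, any 3 bases, then GAA, called GAS-like). The ISRE-like letters occurred in 5 of the 8 genes with a window (Gbp2, Gbp3, Gbp7, Igtp and Irgm1). By window this was 5 of 9, against 3.44% of the 32851 windows in the RefSeq table. The GAS-like letters occurred in 3 genes (Gbp7, Igtp and Psmb8), which have 1 window each, against 8.3% of all windows. Such a match is a description of the sequence and no evidence of binding.

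The windows with the ISRE-like letters are printed because these letters are what 5 of the genes share by sequence, and that of Tap1 because it also serves Psmb9. Each runs 5′ to 3′ along the strand of its gene, and capitals mark every ISRE-like or GAS-like match on either strand.
Gbp2 promoter, chr3:142620413-142620712, plus strand: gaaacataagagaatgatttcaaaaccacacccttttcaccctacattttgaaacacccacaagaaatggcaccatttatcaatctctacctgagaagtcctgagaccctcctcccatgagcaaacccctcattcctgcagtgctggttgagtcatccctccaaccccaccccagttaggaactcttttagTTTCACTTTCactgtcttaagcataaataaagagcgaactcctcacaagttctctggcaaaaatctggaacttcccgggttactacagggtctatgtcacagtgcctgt
Gbp3 promoter, chr3:142559794-142560093, plus strand: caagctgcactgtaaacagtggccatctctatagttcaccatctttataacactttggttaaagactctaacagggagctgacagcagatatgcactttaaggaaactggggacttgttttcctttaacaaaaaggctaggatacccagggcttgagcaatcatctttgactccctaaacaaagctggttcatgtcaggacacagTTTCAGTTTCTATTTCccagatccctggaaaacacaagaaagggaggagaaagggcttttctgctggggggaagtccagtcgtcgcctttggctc
Gbp7 promoter, chr3:142530086-142530385, plus strand: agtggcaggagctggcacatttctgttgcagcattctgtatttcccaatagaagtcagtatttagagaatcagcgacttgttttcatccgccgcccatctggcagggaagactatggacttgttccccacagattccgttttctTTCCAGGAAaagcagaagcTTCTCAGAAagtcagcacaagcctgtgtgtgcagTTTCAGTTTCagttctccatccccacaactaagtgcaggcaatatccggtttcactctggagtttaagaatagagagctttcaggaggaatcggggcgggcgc
Igtp promoter, chr11:58199306-58199605, plus strand: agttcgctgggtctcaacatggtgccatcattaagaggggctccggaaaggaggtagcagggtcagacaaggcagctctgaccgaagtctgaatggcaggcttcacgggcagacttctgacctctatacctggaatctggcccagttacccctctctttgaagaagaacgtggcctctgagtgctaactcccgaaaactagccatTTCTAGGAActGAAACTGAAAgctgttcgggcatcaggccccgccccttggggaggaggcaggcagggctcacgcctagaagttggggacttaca
Irgm1 promoter, chr11:48871371-48871670, minus strand: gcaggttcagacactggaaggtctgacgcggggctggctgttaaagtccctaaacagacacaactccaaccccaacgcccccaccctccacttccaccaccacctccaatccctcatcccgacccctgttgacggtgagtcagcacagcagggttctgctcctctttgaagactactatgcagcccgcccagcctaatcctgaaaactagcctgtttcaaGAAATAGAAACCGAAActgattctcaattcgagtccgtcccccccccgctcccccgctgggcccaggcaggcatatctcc
Tap1 promoter, chr17:34187306-34187605, plus strand: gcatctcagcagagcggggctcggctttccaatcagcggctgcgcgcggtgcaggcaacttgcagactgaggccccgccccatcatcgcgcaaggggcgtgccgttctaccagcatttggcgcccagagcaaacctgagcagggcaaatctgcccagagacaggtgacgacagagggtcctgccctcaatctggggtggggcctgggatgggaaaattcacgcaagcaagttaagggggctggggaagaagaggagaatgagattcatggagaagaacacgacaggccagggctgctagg
In Gbp2, Gbp3, Gbp7, Igtp and Irgm1 the ISRE-like matches fell between 59 and 15 bases before the start. Gbp3 and Irgm1 each held 2 that overlap by 4 bases, and Gbp3 has a second RefSeq start whose window held none. Psmb9 and Tap1 point away from each other with starts 226 bases apart, so that their windows share 275 of 300 bases, and neither motif's letters occurred in them.

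**Figure D1:**
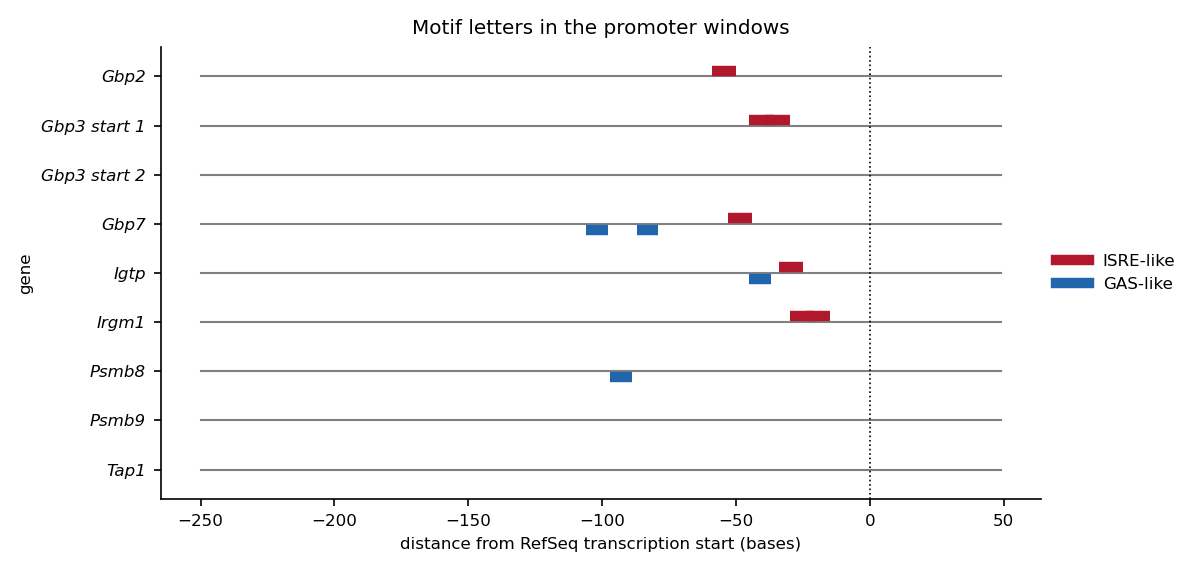
Positions of the ISRE-like (red, above the line) and GAS-like (blue, below the line) letters in the 9 RefSeq windows of 8 genes, as distance in bases from the transcription start (dotted line). The red marks lie within 59 bases before the start in 5 genes.

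Iigp1 lies on chromosome 18. Some of the 10 genes share sequence or exons with others, which bears on how reads were assigned. Of all 50-base stretches in the transcripts of Gbp6, 46.0% also occur in Gbp10 and 65.0% in Gm43302, an annotated gene that overlaps Gbp6 on the same strand and had at most 1 count. The shares were 11.8% for Igtp, with Irgm2, which overlaps it on the same strand over 162 exon bases, and 10.5% for Gbp7, with the pseudogene Gm43802, which had no count. Psmb9 and Tap1 share 212 exon bases on opposite strands, and the strand setting of the counting is not given in the sources used here. Values of Gbp6 in particular are uncertain for this reason.

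Levels are counts per 1000000 (CPM) scaled by TMM over all 16 libraries and are given as replicate 1 and replicate 2. Total counts ranged from 7569779 to 47768610 per library, and 3 counts stand for 0.0481 to 0.363 CPM. Summed hepatocyte markers (8 genes) lay between 14990 and 43270 CPM and were lowest in both Arid1a/b DKO livers. Summed Kupffer cell and macrophage markers (14 genes) ranged from 215 CPM in a 30-day WT liver to 3289 CPM in an Arid1a/b DKO liver, while T and NK cell markers (14 genes) summed to at most 17.1 CPM. Calls rest on edgeR's quasi-likelihood test with Benjamini-Hochberg adjustment over all genes tested, at a threshold of 0.05. In the livers the square root of the common dispersion was 29.3%.

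The counts of the deleted genes do not settle the genotypes. Arid1a was at 87.5 and 90.1 CPM in livers labelled Arid1a KO and 72.2 and 77.0 CPM in livers labelled WT at 9 days (log2 fold change 0.25, SE 0.18, edgeR adjusted p = 0.753). It was at 95.3 and 76.5 CPM in livers labelled Arid1a KO and 105 and 86.4 CPM in livers labelled WT at 30 days (log2 fold change -0.15, SE 0.18, edgeR adjusted p = 0.940), and was not called in the agonist comparison either. These counts run over whole genes, so that reads from exons outside a deletion are included, and the deleted exons are not named in the labels used here. Livers labelled Arid1a/b DKO had 90.6 and 103 CPM of Arid1a, above both livers labelled WT (log2 fold change 0.38, SE 0.18, edgeR adjusted p = 0.150). Arid1b was called lower in livers labelled Arid1a/b DKO, with 24.5 and 25.7 CPM, against 38.0 and 52.8 CPM in livers labelled WT (log2 fold change -0.85, SE 0.28, edgeR adjusted p = 0.0439), but not against livers labelled Arid1a KO, with 38.0 and 46.5 CPM (adjusted p = 0.0774). Arid1a KO, Arid1a/b DKO and WT stand below for libraries with these labels, and every direction is one between libraries so labelled.

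Scaled by exon length, Iigp1 stood highest of the 10, with a median of 72.2 CPM per kb over the 16 libraries, followed by Igtp at 44.9 and Psmb8 at 19.0 CPM per kb. Gbp3, Tap1 and Psmb9 were close together, with medians of 10.9, 10.7 and 10.4 CPM per kb. Gbp2, Gbp7 and Irgm1 had medians of 7.65, 5.95 and 3.62 CPM per kb, and Gbp6 was lowest at 1.32 CPM per kb. Each gene varied several-fold between groups, and whether neighbours in this order of medians differ was not tested. Gbp6 lay below Irgm1 in every library.

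**Figure D2:**
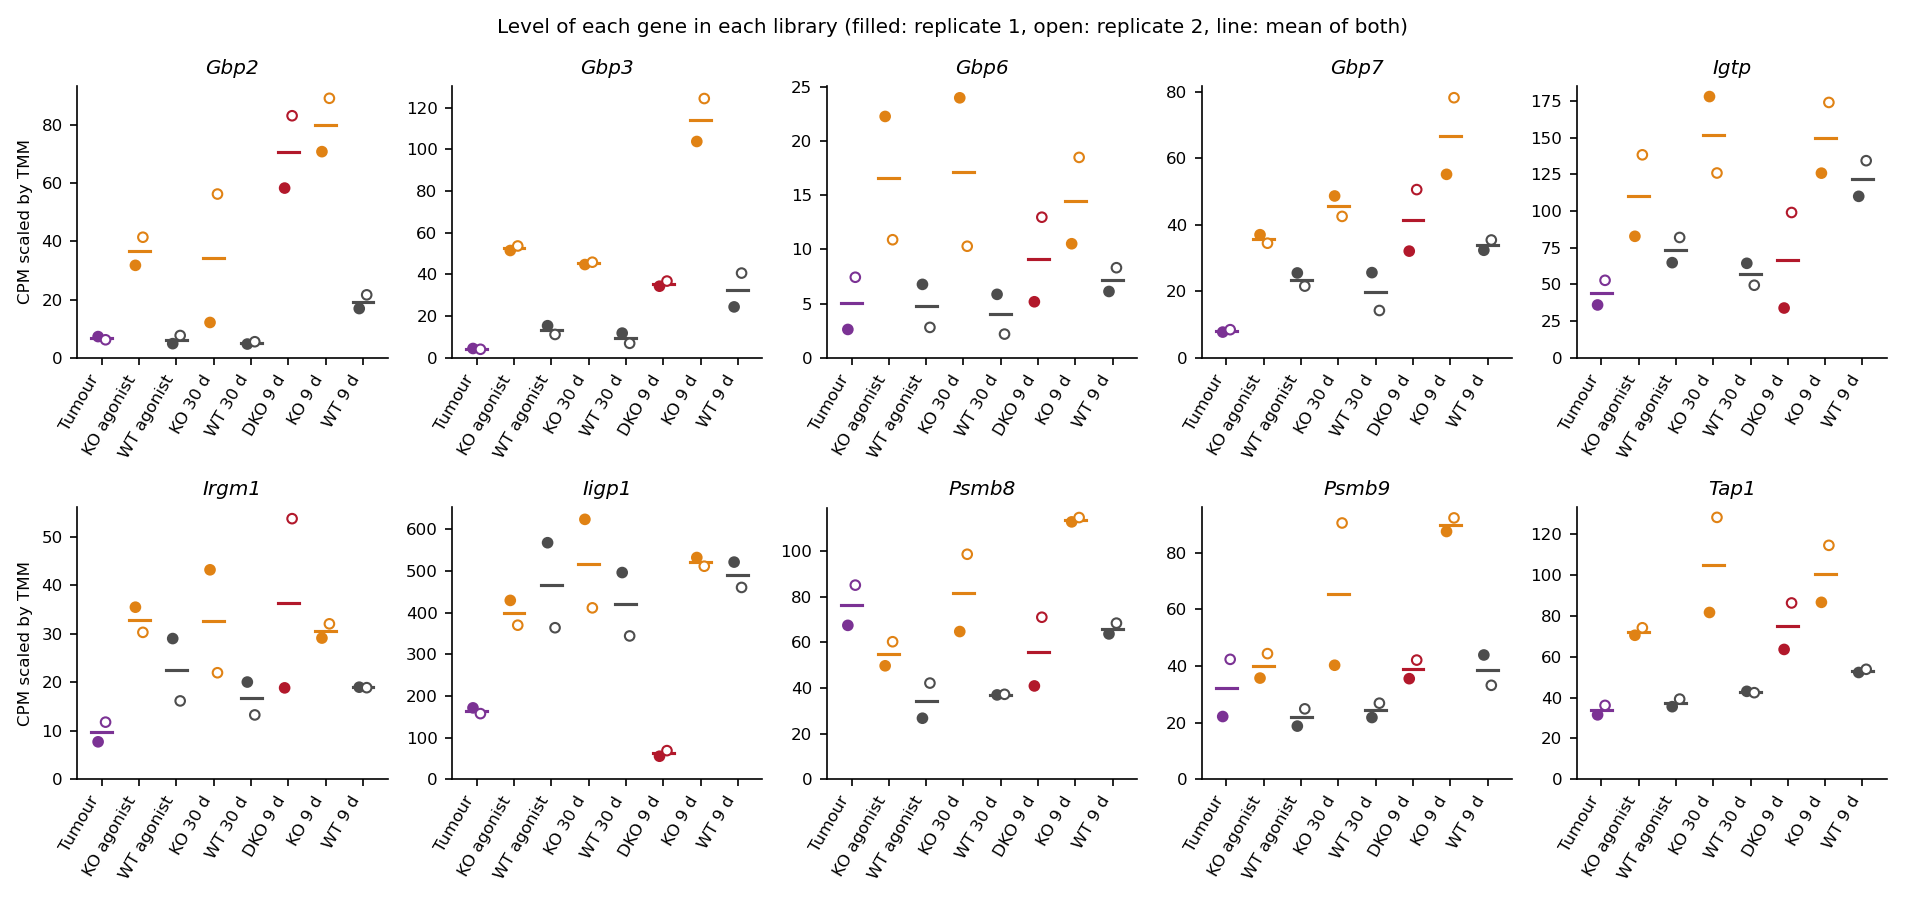
Level of each of the 10 genes in each library, in CPM scaled by TMM on a linear axis that differs between panels. Filled circles are replicate 1, open circles replicate 2 and lines their mean. In Gbp3 both Arid1a KO libraries lie above both WT libraries in all 3 settings, and in Iigp1 the Arid1a/b DKO livers at 55.2 and 68.6 CPM and the tumours at 171 and 157 CPM lie below all other libraries.

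At 9 days after tamoxifen, 8 of the 10 genes were higher in both livers labelled Arid1a KO than in both labelled WT, as were 22.7% of all genes tested, and Gbp3 was the member called. Gbp3 had 104 and 124 CPM in Arid1a KO livers, against 24.4 and 40.6 CPM in WT livers (log2 fold change 1.81, SE 0.29, edgeR adjusted p = 0.0223). Both Arid1a KO livers lay above both WT livers. That call was lost when Arid1a KO replicate 1 was left out (adjusted p = 0.0705 in edgeR), and likewise for Arid1a KO replicate 2 (0.165) and WT replicate 1 (0.166), while the log2 fold change stayed between 1.49 and 2.23 over all alternatives. In all, 1 of 10 members was called higher, against 0.269% of all genes tested, and 8 of 10 had no overlap with higher levels in Arid1a KO, against 22.7% of all genes. Their median log2 fold change was 0.95, beside 0.0027 over all genes tested.

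Among the other guanylate-binding proteins at 9 days, Gbp2, which in mice helps to control Toxoplasma, had 70.8 and 89.2 CPM in Arid1a KO livers and 16.9 and 21.6 CPM in WT livers (log2 fold change 2.05, SE 0.53, edgeR adjusted p = 0.141). Its groups did not overlap, but the difference was not called. Gbp7 had 55.2 and 78.2 CPM in Arid1a KO and 32.3 and 35.4 CPM in WT livers, and Gbp6 had 10.5 and 18.5 CPM in Arid1a KO and 6.11 and 8.31 CPM in WT livers. For both, the lowest Arid1a KO liver stood above the highest WT liver.

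The immunity-related GTPases were not called at this time. Irgm1, a regulator that keeps effector GTPases of the family inactive on host membranes, had 29.1 and 32.0 CPM in Arid1a KO livers and 19.0 and 18.9 CPM in WT livers. Igtp, a regulator of the same kind, overlapped, with 126 and 174 CPM in Arid1a KO and 110 and 134 CPM in WT livers. Iigp1, an effector that coats the vacuoles of parasites, was at 532 and 511 CPM in Arid1a KO and 521 and 460.2 CPM in WT livers (log2 fold change 0.09, SE 0.28). Its groups overlapped.

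The antigen-processing genes were higher in both Arid1a KO livers than in both WT livers at 9 days, without a call. Psmb8, a catalytic subunit of the immunoproteasome, had 113 and 115 CPM in Arid1a KO livers and 63.6 and 68.3 CPM in WT livers (log2 fold change 0.78, SE 0.29, edgeR adjusted p = 0.343). Psmb9, the next such subunit, had 87.4 and 92.2 CPM in Arid1a KO and 43.8 and 33.1 CPM in WT livers (log2 fold change 1.23, SE 0.32). Tap1, which forms the peptide transporter with Tap2, had 86.7 and 115 CPM in Arid1a KO and 52.3 and 53.9 CPM in WT livers (log2 fold change 0.92, SE 0.23). Summed macrophage markers stood at 1035 and 2240 CPM in Arid1a KO and 852 and 1612 CPM in WT livers, which overlap, and the summed hepatocyte markers overlapped too. B cell markers (4 genes) summed to 14.7 and 12.8 CPM in Arid1a KO and 2.90 and 9.61 CPM in WT livers, with 4 of 4 higher without overlap. Of 8 stellate cell and fibroblast markers, 4 were higher and 2 lower without overlap. Of all genes, 22.7% were higher and 22.0% lower without overlap. The part of these cells in the differences was not tested.

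At 30 days after tamoxifen, Gbp3 and Tap1 were called higher in livers labelled Arid1a KO, and all members but Iigp1 stood above WT in both libraries. Gbp3 had 44.7 and 45.8 CPM in Arid1a KO livers, against 11.8 and 6.90 CPM in WT livers (log2 fold change 2.29, SE 0.30, edgeR adjusted p = 0.00975). Tap1 had 81.7 and 128 CPM in Arid1a KO livers, against 43.1 and 42.4 CPM in WT livers (log2 fold change 1.30, SE 0.23, edgeR adjusted p = 0.0422). The 2 called members compare with 0.286% of all genes called higher, and the 9 of 10 without overlap with 17.8% of all genes. The members' median log2 fold change was 1.36, beside 0.026 over all genes tested.

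The Gbp3 call at 30 days was lost without WT replicate 2 (edgeR adjusted p = 0.108) and when only these 4 libraries were fitted (0.218). The Tap1 call was lost without Arid1a KO replicate 2 (log2 fold change 0.88, edgeR adjusted p = 0.318), without WT replicate 1 (0.227), without WT replicate 2 (0.350), with only these 4 libraries (0.291) and with only replicate 2 of each 30-day vehicle group (0.0732). The count of called members moved as single libraries were left out. It was 0 with only these 4 libraries, where 0 of all genes were called, and 6 with DESeq2, where 412 were.

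The 2 Arid1a KO livers of 30 days were unequal in several members. Gbp2 had 12.1 and 56.2 CPM in Arid1a KO livers, against 4.70 and 5.49 CPM in WT livers, so that replicate 1 was far below replicate 2 and still above WT (log2 fold change 2.75, SE 0.56, edgeR adjusted p = 0.0737). Psmb9 had 40.2 and 90.4 CPM in Arid1a KO and 21.8 and 26.8 CPM in WT livers, and Psmb8 had 64.7 and 98.5 CPM in Arid1a KO and 36.9 and 37.2 CPM in WT livers. In these 3 genes and in Tap1, replicate 2 was the higher Arid1a KO liver. In the immunity-related GTPases the order was the opposite: Igtp had 178 and 126 CPM in Arid1a KO and 64.3 and 49.4 CPM in WT livers, and Irgm1 had 43.2 and 22.0 CPM in Arid1a KO and 20.0 and 13.3 CPM in WT livers.

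Gbp6 and Gbp7 also had their higher Arid1a KO value in replicate 1, with 24.0 and 10.3 CPM for Gbp6 in Arid1a KO and 5.85 and 2.18 CPM in WT livers, and 48.7 and 42.5 CPM for Gbp7 in Arid1a KO and 25.6 and 14.2 CPM in WT livers. Iigp1 had 624 and 411 CPM in Arid1a KO and 496 and 344 CPM in WT livers and overlapped (log2 fold change 0.30, SE 0.28). Summed macrophage markers were 649 and 815 CPM in Arid1a KO and 638 and 215 CPM in WT livers, with the lowest value in WT replicate 2. Of the 14 macrophage markers, 13 had a positive log2 fold change and 6 were higher without overlap, beside 17.8% of all genes. Their part in the differences was not tested.

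Under the agonist, Gbp2, Gbp3 and Tap1 were called higher in livers labelled Arid1a KO than in those labelled WT. Gbp2 had 31.8 and 41.4 CPM in Arid1a KO livers, against 4.83 and 7.64 CPM in WT livers (log2 fold change 2.53, SE 0.56, edgeR adjusted p = 0.0282). Gbp3 had 51.4 and 53.6 CPM in Arid1a KO livers, against 15.3 and 11.2 CPM in WT livers (log2 fold change 2.00, SE 0.29, edgeR adjusted p = 0.00618). Tap1 had 70.5 and 74.2 CPM in Arid1a KO livers, against 35.5 and 39.3 CPM in WT livers (log2 fold change 0.95, SE 0.23, edgeR adjusted p = 0.0417). In all 3 genes both Arid1a KO livers lay clear of both WT livers, and 9 of 10 members had no overlap, against 26.1% of all genes. The 3 calls compare with 3.05% of all genes called higher, and the median log2 fold change was 0.77, beside -0.0053 over all genes.

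The Gbp2 and Tap1 calls under the agonist were lost whichever of the 4 libraries was left out, with edgeR adjusted p from 0.0893 to 0.160 for Gbp2 and from 0.120 to 0.211 for Tap1. The Gbp3 call was lost without WT replicate 2 (adjusted p = 0.0896). Psmb8 had 49.7 and 60.2 CPM in Arid1a KO and 26.7 and 42.1 CPM in WT livers, and Psmb9 had 35.7 and 44.3 CPM in Arid1a KO and 18.7 and 24.8 CPM in WT livers. Both had no overlap and were not called (edgeR adjusted p = 0.214 and 0.151).

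Of the remaining GTPases under the agonist, Gbp6 had 22.3 and 10.9 CPM in Arid1a KO and 6.77 and 2.80 CPM in WT livers, and Gbp7 had 37.0 and 34.5 CPM in Arid1a KO and 25.5 and 21.6 CPM in WT livers. Igtp had 82.8 and 138 CPM in Arid1a KO and 64.8 and 82.0 CPM in WT livers, and Irgm1 had 35.5 and 30.3 CPM in Arid1a KO and 29.0 and 16.1 CPM in WT livers. For Igtp and Irgm1 the lowest Arid1a KO value lay less than 2 CPM above the highest WT value. Iigp1 had 429 and 369.6 CPM in Arid1a KO and 568 and 364 CPM in WT livers and overlapped. Summed macrophage markers were 1523 and 912 CPM in Arid1a KO and 685 and 526 CPM in WT livers. Of these 14 markers, 2 were called higher (Ccr2 and Ly6c2, both of monocytes), beside 3.05% of all genes. Without overlap 12 were higher, beside 26.1% of all genes. Stellate cell and fibroblast markers were 842 and 458 CPM in Arid1a KO and 256 and 270.3 CPM in WT livers, with 7 of 8 higher without overlap and Col1a1 called, beside the same shares. Itgax was the 1 of 5 dendritic cell markers called higher, and 3 of the 5 had a positive log2 fold change. Spp1 was the 1 of 5 cholangiocyte markers called higher, and all 5 were positive. Of 14 T and NK cell markers 0 were called, and 5 were positive (median -0.42). Of all genes, 3.05% were called higher and 49.58% were positive. The part of these cells was not tested.

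**Figure D3:**
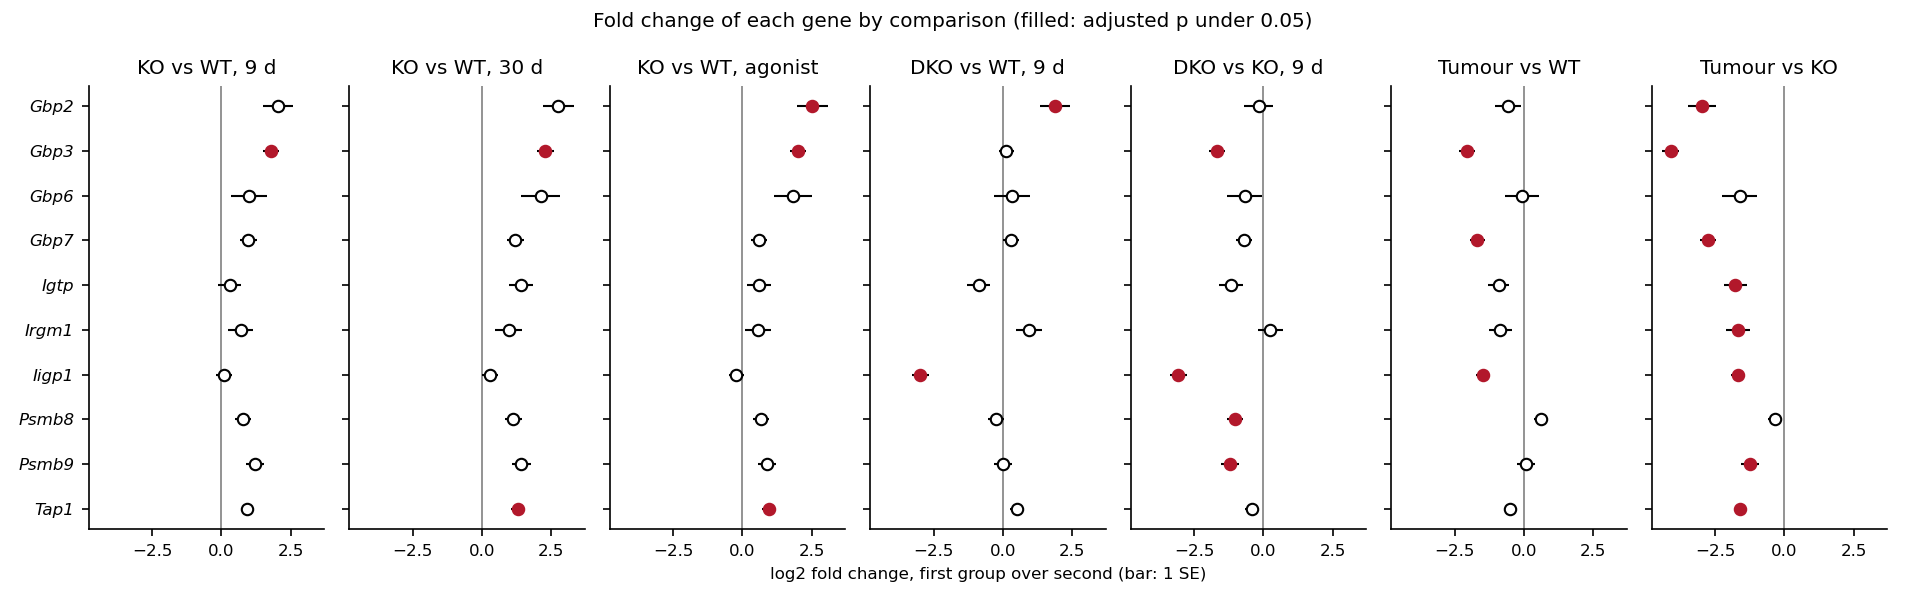
Log2 fold change of each gene (point) with 1 SE (bar) in 7 comparisons, the first-named group over the second. Filled points are called at an adjusted p under 0.05 in edgeR. Gbp3 is called higher in each of the 3 comparisons of KO with WT, and Iigp1, near 0 in those 3, is at -2.98 in DKO against WT.

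The agonist itself moved none of these genes past the threshold in either genotype. In WT livers, agonist against vehicle at 30 days, edgeR called 0 of 10 members, beside 0.028% of all genes. In edgeR 0 had an unadjusted p under 0.05. DESeq2 and limma-trend called 0 members, beside 111 and 32 of all genes. In Arid1a KO livers edgeR called 0 of 10, beside 0.869% of all genes, with 2 at an unadjusted p under 0.05 (Psmb9 and Tap1). There DESeq2 and limma-trend called 0 members, beside 671 and 208 of all genes. Psmb9 had 35.7 and 44.3 CPM in agonist-treated Arid1a KO livers and 40.2 and 90.4 CPM in vehicle-treated ones, and the groups overlapped. Tap1 had 70.5 and 74.2 CPM with the agonist and 81.7 and 128 CPM with vehicle, without overlap (log2 fold change -0.54, SE 0.23). The test of whether the genotype difference depends on the agonist called 0 of 10 members in edgeR, beside 0.00561% of all genes. In edgeR 0 had an unadjusted p under 0.05. In DESeq2 and limma-trend this test called 0 members, beside 132 and 6 of all genes. With the 9-day WT livers as WT vehicle, as the titles would have it, 0 of 10 members were called by edgeR in WT livers and 0 in the test of dependence, while the number of all genes called was 60 in place of 5 and 166 in place of 1.

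Between 9 and 30 days, WT livers had lower values at the later time. All 10 log2 fold changes were negative (median -0.81, beside -0.006 over all genes), 8 of 10 members were lower without overlap, against 20.6% of all genes, and 0 were called by edgeR (background 0.0224%), with 5 at an unadjusted p under 0.05. Gbp3 had 11.8 and 6.90 CPM at 30 days, against 24.4 and 40.6 CPM at 9 days (log2 fold change -1.82, SE 0.29, edgeR adjusted p = 0.0885). Gbp2 had 4.70 and 5.49 CPM at 30 days, against 16.9 and 21.6 CPM at 9 days (log2 fold change -1.91, SE 0.55, edgeR adjusted p = 0.282). DESeq2 called 2 members and limma-trend 0, beside 275 and 18 of all genes. In Arid1a KO livers 4 of 10 were lower without overlap at 30 days, against 18.4% of all genes. There 0 were called by edgeR (background 0.0112%), with 2 at an unadjusted p under 0.05 (Gbp2 and Gbp3). DESeq2 called 1 and limma-trend 0, beside 106 and 1 of all genes. Gbp3 had 44.7 and 45.8 CPM in Arid1a KO at 30 days and 104 and 124 CPM at 9 days (log2 fold change -1.33, SE 0.28).

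Macrophage markers and MHC class II genes were lower at the later time as well, without a call in edgeR. Hepatocyte markers did not share this: 6 of 8 had a positive log2 fold change in WT and 4 of 8 in Arid1a KO livers. In WT livers 14 of 14 macrophage markers had negative log2 fold changes at 30 against 9 days (median -1.50), with 12 lower without overlap and 10 at an unadjusted p under 0.05. All 7 MHC class II genes of WT livers were lower without overlap (median -1.75), with 6 at an unadjusted p under 0.05. Of all genes in WT livers, 20.6% were lower without overlap and 1621 of 17831 had such a p. In Arid1a KO livers 14 of 14 macrophage markers were negative (median -1.09), with 10 lower without overlap and 5 at an unadjusted p under 0.05. The 7 MHC class II genes were negative there too (median -0.27), with 0 lower without overlap and 0 at such a p. There 18.4% of all genes were lower without overlap and 1230 of 17831 had such a p. The part of these cells in the lower values was not tested.

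The test of whether the genotype difference changed between the times called 0 of 10 members in edgeR, beside 0.0% of all genes. In edgeR 0 had an unadjusted p under 0.05. In DESeq2 and limma-trend this test called 0 members, beside 1 and 0 of all genes. Its edgeR estimate was 0.49 (SE 0.40) on the log2 scale for Gbp3 and 1.12 (SE 0.61) for Igtp. With such errors, changes of the genotype effect of a size near these errors were not detectable.

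In livers labelled Arid1a/b DKO, at 9 days, Gbp2 was called higher than in livers labelled WT, Gbp3, Psmb8 and Psmb9 were near WT levels, and Iigp1 fell. The comparisons with WT and with Arid1a KO share the Arid1a/b DKO libraries, and each shares its other group with the comparison of Arid1a KO with WT. Iigp1 had 55.2 and 68.6 CPM in Arid1a/b DKO livers, against 521 and 460.2 CPM in WT livers (log2 fold change -2.98, SE 0.30, edgeR adjusted p = 1.29e-04). Against the 532 and 511 CPM of Arid1a KO livers the difference was of similar size (log2 fold change -3.07, SE 0.30, edgeR adjusted p = 1.14e-04). Both Arid1a/b DKO livers were the lowest of the 16 libraries, and the call against either group held in all 11 settings tried. Gbp2 had 58.3 and 83.2 CPM in Arid1a/b DKO livers, against 16.9 and 21.6 CPM in WT livers (log2 fold change 1.88, SE 0.53, edgeR adjusted p = 0.0248).

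Against WT livers, 1 of 10 members was called higher in Arid1a/b DKO livers and 1 lower, where 12.6% of all genes were called higher and 13.8% lower. The median log2 fold change of 0.21 stood beside 0.010 over all genes tested. The Gbp2 call was lost without Arid1a/b DKO replicate 2 (edgeR adjusted p = 0.108), without WT replicate 1 (0.158) and without WT replicate 2 (0.0815).

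Set against Arid1a KO livers, Arid1a/b DKO livers had lower Gbp3, Psmb8, Psmb9 and Iigp1, which makes 4 of 10 called lower, against 12.1% of all genes, with a median log2 fold change of -0.85 beside 0.023. Gbp3 had 34.3 and 36.8 CPM in Arid1a/b DKO livers, against 104 and 124 CPM in Arid1a KO livers (log2 fold change -1.68, SE 0.28, edgeR adjusted p = 0.00252). Psmb8 had 40.9 and 70.9 CPM in Arid1a/b DKO livers, against 113 and 115 CPM in Arid1a KO livers (log2 fold change -1.02, SE 0.29, edgeR adjusted p = 0.0301). Psmb9 had 35.5 and 42.0 CPM in Arid1a/b DKO livers, against 87.4 and 92.2 CPM in Arid1a KO livers (log2 fold change -1.21, SE 0.32, edgeR adjusted p = 0.0231). None of these groups overlapped. The Gbp3 call held in all 11 settings. That of Psmb9 was lost whichever of the 4 libraries was left out (edgeR adjusted p from 0.0622 to 0.130), and that of Psmb8 without Arid1a/b DKO replicate 1 (log2 fold change -0.66, adjusted p = 0.194), without Arid1a KO replicate 1 (0.112) or 2 (0.115), and with only these 4 libraries (0.0563).

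The 2 Arid1a/b DKO livers disagreed on several GTPases. Irgm1 had 18.8 and 53.7 CPM and Igtp 33.9 and 99.0 CPM, with replicate 2 clearly higher in both. Gbp6 had 5.16 and 13.0 CPM and Gbp7 32.1 and 50.6 CPM, again higher in replicate 2. Tap1, at 63.6 and 86.4 CPM in Arid1a/b DKO livers, stood above both WT livers and below both Arid1a KO livers, without a call on either side. Its Arid1a/b DKO replicate 2 was nearly level with Arid1a KO replicate 1, which had 86.7 CPM. Against WT, the sign of the log2 fold change of Gbp6, Gbp7 and Irgm1 turned negative without Arid1a/b DKO replicate 2.

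Other tissue markers moved with the Arid1a/b DKO livers. Summed hepatocyte markers were 14990 and 15610 CPM in Arid1a/b DKO livers and 43270 and 22860 CPM in WT livers, with 6 of 8 called lower, beside 13.8% of all genes. Summed macrophage markers were 3289 and 1928 CPM in Arid1a/b DKO and 852 and 1612 CPM in WT livers, with 4 of 14 called higher, and stellate cell and fibroblast markers were 1966 and 975 CPM in Arid1a/b DKO and 259 and 329.7 CPM in WT livers, with 5 of 8 called higher. Of all genes, 12.6% were called higher. Their part in the values of Gbp2 and Iigp1 was not tested.

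Genes near Iigp1 on chromosome 18, named after their values were seen, behaved alike. Gm4951 had 14.3 and 14.9 CPM in Arid1a/b DKO livers, against 165 and 116 CPM in WT livers (log2 fold change -3.26, SE 0.32, edgeR adjusted p = 1.14e-04). F830016B08Rik had 5.83 and 4.01 CPM in Arid1a/b DKO livers, against 56.2 and 64.0 CPM in WT livers (log2 fold change -3.61, SE 0.29, edgeR adjusted p = 4.17e-05). Both are annotated as protein-coding genes and were set among the immunity-related GTPases here. They share little sequence with Iigp1, 1.47% of its 50-base stretches in the case of Gm4951. Gbp10, which shares much sequence with Gbp6, had 0.215 and 1.04 CPM in Arid1a/b DKO livers, against 8.69 and 12.2 CPM in WT livers (log2 fold change -3.99, SE 0.76, edgeR adjusted p = 0.00407), while the Gbp6 count itself overlapped between these groups.

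In the tumours Gbp3, Gbp7 and Iigp1 were called lower than in WT livers, as were 16.1% of all genes tested, and 8 of the 10 genes were called lower than in Arid1a KO livers, as were 15.2% of all genes. The WT side of this comparison is the mean of the 9-day and 30-day vehicle groups, each with equal weight, and the Arid1a KO side is built likewise. Gbp3 had 4.42 and 4.04 CPM in tumours, against 24.4 and 40.6 CPM in 9-day and 11.8 and 6.90 CPM in 30-day WT livers (log2 fold change -2.04, SE 0.28, edgeR adjusted p = 2.33e-04). Gbp7 had 7.71 and 8.44 CPM in tumours, against 32.3 and 35.4 CPM in 9-day and 25.6 and 14.2 CPM in 30-day WT livers (log2 fold change -1.68, SE 0.28, edgeR adjusted p = 7.81e-04). Iigp1 had 171 and 157 CPM in tumours, against 521 and 460.2 CPM in 9-day and 496 and 344 CPM in 30-day WT livers (log2 fold change -1.47, SE 0.26, edgeR adjusted p = 0.00112). These 3 of 10 were called lower, where 16.1% of all genes were, and each call held in all 13 settings, without overlap between the groups.

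The other members were not called between tumours and WT livers. Psmb8 had 67.4 and 85.0 CPM in tumours, against 63.6 and 68.3 CPM in 9-day and 36.9 and 37.2 CPM in 30-day WT livers (log2 fold change 0.62, SE 0.25, edgeR adjusted p = 0.0661), and overlapped with the 9-day livers. Psmb8 was called higher in 7 of the 13 settings tried (adjusted p from 0.0197 to 0.0494, DESeq2 and limma-trend among them), and in none of those that left out a library. Psmb9, at 22.1 and 42.3 CPM in tumours, also overlapped with WT livers. Tap1 had 31.5 and 36.2 CPM in tumours and lay below the 4 WT livers (log2 fold change -0.49, SE 0.21, edgeR adjusted p = 0.0799). Gbp2 had 7.26 and 6.17 CPM in tumours, which is between the 9-day and the 30-day WT livers, and its sign turned positive (0.38) when the 30-day WT livers alone were used.

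Against vehicle-treated Arid1a KO livers, 8 of 10 members were called lower in tumours, where 15.2% of all genes were, and the median log2 fold change was -1.67, beside -0.00034 over all genes. Gbp3 differed by -4.09 (SE 0.31, edgeR adjusted p = 5.95e-06), Gbp2 by -2.98 (SE 0.51, adjusted p = 0.00117) and Tap1 by -1.60 (SE 0.22, adjusted p = 2.52e-04). Igtp, at 36.0 and 52.8 CPM in tumours, and Irgm1, at 7.71 and 11.8 CPM, were called lower, as were Gbp7, Iigp1 and Psmb9. The Psmb9 groups overlapped, with 22.1 and 42.3 CPM in tumours and 40.2 CPM in 30-day Arid1a KO replicate 1. Gbp6, at 2.61 and 7.43 CPM in tumours, and Psmb8 were not called. Without tumour replicate 1 the calls of Igtp (edgeR adjusted p = 0.061), Irgm1 (0.0947) and Psmb9 (log2 fold change -0.86, 0.125) were lost, and 5 members were called. The Psmb9 call was also lost with only the libraries compared (edgeR adjusted p = 0.0643) and against the 30-day livers alone (0.0605).

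Summed macrophage markers were 516 and 397 CPM in tumours, against 1035 and 2240 CPM in 9-day Arid1a KO, 649 and 815 CPM in 30-day Arid1a KO, 852 and 1612 CPM in 9-day WT and 638 and 215 CPM in 30-day WT livers, so that the tumours lay within the spread of the 30-day WT livers. Against Arid1a KO livers 9 of these 14 markers were called lower and 1 higher (Cd68), beside 2759 and 3266 of 18193 genes. Against WT livers 6 were called lower and 1 higher (Cd68), beside 16.1% and 20.5% of all genes. T and NK cell markers summed to 5.45 and 4.45 CPM in tumours, and B cell markers (4 genes) to 1.48 and 0.404 CPM. Summed hepatocyte markers, at 27250 and 23770 CPM in tumours, lay within the range of the livers. The part of these cells in the lower values was not tested.

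Because immunoproteasome subunits replace constitutive ones, each was set against its counterpart per kb of exon: Psmb8 against Psmb5, Psmb9 against Psmb6 and Psmb10 against Psmb7. Psmb5, Psmb6 and Psmb7 were not called between Arid1a KO and WT livers in any of the 3 settings, with 0 of 3 at an unadjusted p under 0.05 at 9 and 30 days in edgeR. The ratio of Psmb8 to Psmb5 was 0.432 and 0.389 in Arid1a KO livers, against 0.256 and 0.274 in WT livers at 9 days. At 30 days it was 0.241 and 0.309 in Arid1a KO and 0.148 and 0.124 in WT livers. Under the agonist it was 0.151 and 0.154 in Arid1a KO and 0.107 and 0.136 in WT livers, and in Arid1a/b DKO livers of 9 days it was 0.140 and 0.266. The Arid1a KO and WT values did not overlap in any of the 3 settings, but under the agonist the gap was smaller than the spread of the WT pair.

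The ratio of Psmb9 to Psmb6 was 0.341 and 0.305 in Arid1a KO livers, against 0.182 and 0.136 in WT livers at 9 days, and 0.152 and 0.326 in Arid1a KO against 0.0906 and 0.0849 in WT livers at 30 days. In Arid1a/b DKO livers it was 0.120 and 0.145, with values in the range of WT or just below it. In tumours the ratio of Psmb8 to Psmb5 was 0.126 and 0.116, although Psmb8 itself was not low there, and Psmb5 had 143 and 194 CPM in tumours, against 66.0 and 66.3 CPM in 9-day and 66.5 and 79.5 CPM in 30-day WT livers (log2 fold change 1.28, SE 0.17, edgeR adjusted p = 1.82e-04). The ratio of Psmb10 to Psmb7 was 1.87 and 1.40 in Arid1a KO and 1.12 and 1.61 in WT livers at 9 days, which overlap, and in tumours it was 1.93 and 1.86. The ratios were not tested.

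**Figure D4:**
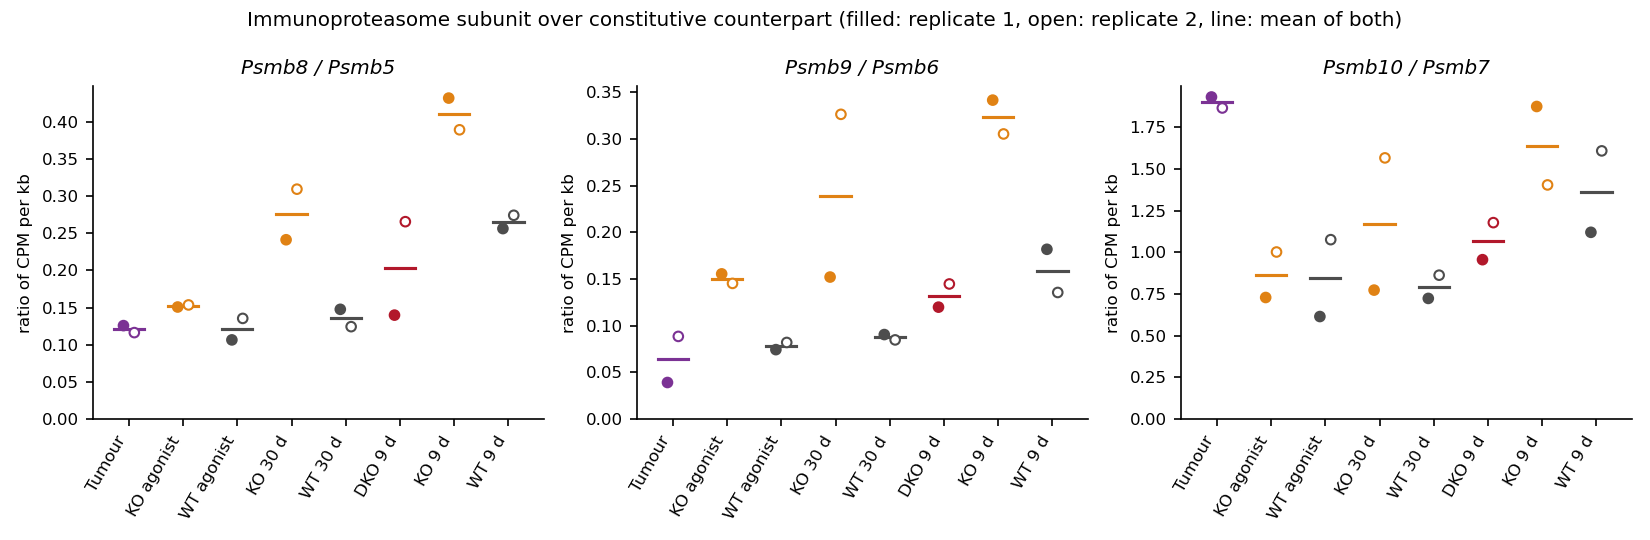
Ratio of each immunoproteasome subunit to its constitutive counterpart in each library, from CPM per kb of exon on linear axes from 0. Filled circles are replicate 1, open circles replicate 2 and lines their mean. For Psmb8 the 9-day KO livers lie above all other libraries, for Psmb9 they lie on either side of 1 of the 30-day KO livers and above the rest, and for Psmb10 KO and WT overlap at 9 days.

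The wider class I pathway was read from a list of 15 further genes (the subunits and activators of the immunoproteasome, the peptide-loading complex, class I heavy chains and Nlrc5). None was called between Arid1a KO and WT livers by edgeR, with 4, 3 and 3 at an unadjusted p under 0.05 at 9 days, at 30 days and under the agonist. Of all 17831 genes tested, 1893, 1681 and 3827 had such a p. The list's median log2 fold changes were 0.23, 0.18 and -0.05, with 12, 11 and 6 of 15 positive. The genes named next had the smallest p of the list at 30 days, and all were higher in Arid1a KO. H2-T23, a non-classical class I heavy chain, had 792 and 764 CPM in Arid1a KO and 388 and 441 CPM in WT livers at 9 days (log2 fold change 0.91, SE 0.22, edgeR adjusted p = 0.12). Tap2, the partner of Tap1, had 58.8 and 64.2 CPM in Arid1a KO and 37.8 and 45.2 CPM in WT livers (log2 fold change 0.57, SE 0.20, edgeR adjusted p = 0.323), and both genes had no overlap. Tapbp, which tethers class I molecules to the transporter, differed by 0.78 (SE 0.26) and H2-D1, a classical heavy chain, by 0.53 (SE 0.22) on the log2 scale.

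Part of the same list was called lower in Arid1a/b DKO livers. Against WT livers 5 of 15 were called lower, beside 13.8% of all genes (Erap1, B2m, H2-K1, Calr and Pdia3, named after their values were seen) and 11 were lower without overlap, beside 32.9% of all genes, with a median log2 fold change of -0.40. Against Arid1a KO livers 6 of 15 were called lower, beside 12.1% of all genes, among them H2-T23 with 274 and 390.1 CPM in Arid1a/b DKO livers, against 792 and 764 CPM in Arid1a KO livers (log2 fold change -1.22, SE 0.23, edgeR adjusted p = 0.00409), and H2-D1 with 686 and 674 CPM in Arid1a/b DKO and 1235 and 1316 CPM in Arid1a KO livers (log2 fold change -0.90, SE 0.22, edgeR adjusted p = 0.0169). In tumours 3 of 15 were called lower, beside 16.1% of all genes, and 2 higher (Psme1 and Psme2, the subunits of the proteasome activator PA28), beside 20.5% of all genes, against WT livers.

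MHC class II genes, which present peptides from outside the cell and mark professional antigen-presenting cells, were a list of 7. None was called in the 5 comparisons among Arid1a/b DKO, Arid1a KO and WT livers by edgeR, with at most 1 at an unadjusted p under 0.05. At 9 days all 7 were lower in Arid1a KO than in WT livers (median log2 fold change -0.56), 6 of them without overlap, beside 22.0% of all genes, and at 30 days all 7 were higher (median 0.75), none without overlap. Under the agonist all 7 were higher as well (median 0.68), 6 of them without overlap, beside 26.1% of all genes. In tumours 6 of 7 had positive log2 fold changes against WT and against Arid1a KO livers. Cd74, the invariant chain, was the 1 of 7 called higher in both. Of all genes, 20.5% were called higher against WT livers and 3266 of 18193 against Arid1a KO livers.

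Of the 7 other guanylate-binding proteins, Gbp9 was the 1 called higher in Arid1a KO livers under the agonist, with 45.7 and 23.7 CPM in Arid1a KO and 10.8 and 7.96 CPM in WT livers (log2 fold change 1.90, SE 0.45, edgeR adjusted p = 0.0378). There 3.05% of all genes were called higher. At each of 9 and 30 days 2 of 7 had an unadjusted p under 0.05, as had 1893 and 1681 of 17831 genes. Gbp10 was the 1 of 7 called lower in Arid1a/b DKO against WT livers, where 13.8% of all genes were. In tumours 3 of 7 were called lower (16.1% of all genes were) and 1 higher (20.5% were) against WT livers, the higher one being Gbp8 (log2 fold change 1.97, SE 0.48, edgeR adjusted p = 0.00753). Of the 9 other immunity-related GTPases, 7 passed the filter, of which 2 were called lower in Arid1a/b DKO against WT (those on chromosome 18), where 13.8% of all genes were, and all 7 lower in tumours against Arid1a KO livers, where 15.2% were. Gm12250 had 31.3 and 21.3 CPM in Arid1a KO and 6.14 and 2.59 CPM in WT livers at 30 days (log2 fold change 2.62, SE 0.64, edgeR adjusted p = 0.138), and Irgm2 had 177 and 101 CPM in Arid1a KO and 78.2 and 43.2 CPM in WT livers (log2 fold change 1.20, SE 0.41, edgeR adjusted p = 0.326).

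Upstream, the interferon gamma signalling list held 12 genes, of which 11 passed the filter. In Arid1a KO against WT the log2 fold change was positive for 9 at 9 days, 8 at 30 days and 9 under the agonist. The medians were 0.24, 0.17 and 0.46. Under the agonist 7 were higher without overlap, beside 26.1% of all genes. At 30 days Irf9 had 97.5 and 78.9 CPM in Arid1a KO and 63.6 and 54.6 CPM in WT livers. Stat2 had 216 and 141 CPM against 138 and 108 CPM. Neither was called. Irf2, a factor that binds the same response elements as Irf1, went the other way in all 3 settings. At 30 days it had 52.2 and 56.3 CPM in Arid1a KO and 69.7 and 92.2 CPM in WT livers. At 9 days it had 45.7 and 55.2 CPM in Arid1a KO and 59.1 and 56.9 CPM in WT livers. It was not called at either time. Under the agonist it was called lower, with 34.6 and 50.4 CPM in Arid1a KO and 89.6 and 98.8 CPM in WT livers (log2 fold change -1.14, SE 0.20, edgeR adjusted p = 0.0138). There 340 of 17831 genes were called lower. Irf2 was also called lower in Arid1a/b DKO against WT livers, as were 13.8% of all genes. It had 34.5 and 34.2 CPM in Arid1a/b DKO and 59.1 and 56.9 CPM in WT livers (log2 fold change -0.75, SE 0.20, edgeR adjusted p = 0.0211). In that comparison 8 of the 11 genes were positive (median 0.29), and Jak1 and Irf8 were called higher, beside 12.6% of all genes.

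Interferon transcripts themselves were hardly seen. Ifng had 17 counts over all 16 libraries and at most 5 in 1 library, and Ifnb1 had 7 counts in all. Ifna1, Ifna2, Ifnl2, Ifnl3 and Ifne had no count, which at this depth allows at most 0.363 CPM in any library, and Ifna4 had 2. Ifnk, an interferon known from keratinocytes, had 46 and 78 counts in Arid1a/b DKO livers and at most 7 in any other library. It had 1.10 and 1.25 CPM in Arid1a/b DKO livers and 0.161 and 0.0637 CPM in WT livers. Of the 9 interferon genes it was the 1 that passed the filter on low counts, and it passed through the Arid1a/b DKO libraries where it was high. Its call against WT livers is therefore a description only (log2 fold change 3.53, SE 0.71, edgeR adjusted p = 0.00524). There 12.6% of all genes were called higher.

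Over the 14 liver libraries the members varied together to different degrees, described here by Pearson correlations of log2 CPM between libraries that share groups, depth and preparation. Psmb8 and Psmb9 (r = 0.94), Gbp3 and Gbp7 (r = 0.93) and Psmb9 and Tap1 (r = 0.91) were the closest pairs. Against the mean of the other 9, r was 0.93 for Gbp3 and for Gbp7, and between 0.59 and 0.88 for the others apart from Iigp1, for which it was -0.01. Igtp was the member nearest to Iigp1 (r = 0.51), and Gbp2 the farthest (r = -0.41).

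**Figure D5:**
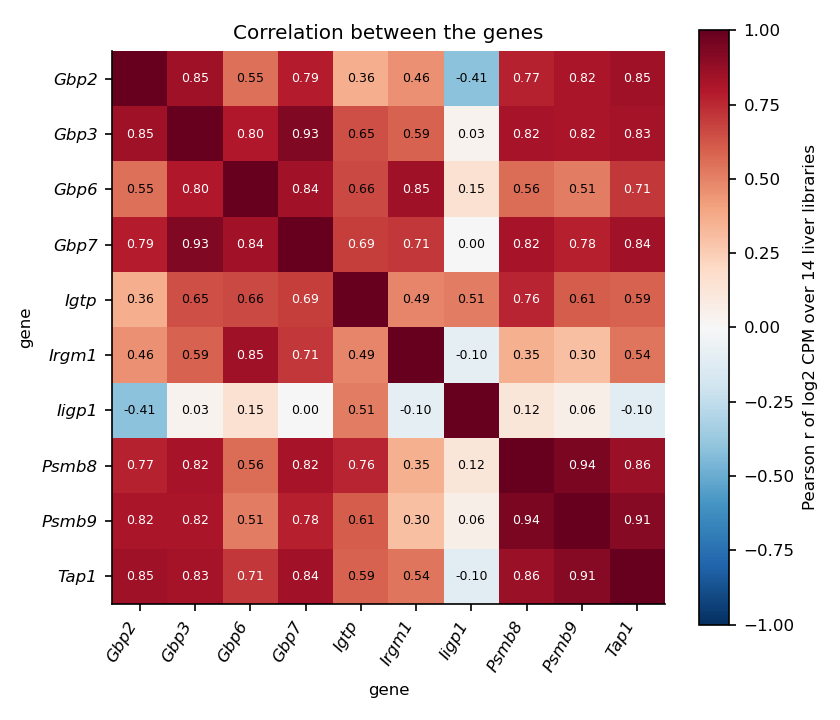
Pearson correlation of log2 CPM between each pair of the 10 genes over the 14 liver libraries, with the value printed in each cell. Iigp1 stands apart from the other 9 genes, with r from -0.41 with Gbp2 to 0.51 with Igtp.

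Of 11572 named genes outside the lists with a mean of at least 2 CPM, those whose log2 CPM over the 16 libraries was most like the mean of the 10 members were Uba7 (r = 0.92), Irf7 (0.91), Ifi44 (0.91), Tnfrsf14 (0.91), H2-T24 (0.90), H2-T22 (0.90), Zbp1 (0.89) and Herc6 (0.88). The mean log2 CPM of the members was highest in the 9-day Arid1a KO livers (6.27 and 6.56) and, averaged over a group, lowest in the tumours (4.05 and 4.43), although the second tumour was above WT replicate 2 of 30 days (4.35).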

How the data were processed

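The labels' protocols describe polyadenylated RNA from whole liver tissue or isolated tumours and TruSeq libraries. The submitters' processing notes name fastp, STAR 2.7.3, featureCounts and GRCm38.p6. Neither the annotation release nor the strand setting is given in the sources used here. The authors deposited raw counts, which are whole numbers of reads for each gene. They also deposited normalized signal values, and a check of that table found each library's values to be its counts multiplied by a single factor.

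An edgeR 4.0.16 model (R 4.3.3) took in the 14 liver libraries and the 17831 genes that passed filterByExpr, scaled by TMM, and left 7 residual degrees of freedom for the quasi-likelihood F test. Tumour comparisons came from a model of every library (16), with 18193 genes and 8 such degrees. In each of the 13 comparisons, p-values were adjusted by Benjamini-Hochberg over every gene tested. SE was computed as the size of the log2 fold change over the square root of the F statistic. The procedure was tested on simulated data. Correlations used log2 CPM with a prior count of 2. Exon lengths are unions over GENCODE M21 transcripts, and promoter windows are from RefSeq. Floors of 3 counts cover counting error only.

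The results were recomputed with RLE scaling, with every gene kept regardless of count, with DESeq2 1.42.0, with limma-trend (limma 3.58.1) on log2 of the normalized signal plus 1, with a replicate block, with other sets of libraries in the fit, and without each library in turn. In the last case a group of 1 sample is assumed to vary as the others do. The members and gene lists were chosen with earlier results of these data known. Named genes are the 10 members in every library, up to 4 members of each other list with the smallest p between Arid1a KO and WT livers at 30 days, and the 8 genes most like the members. Plots were made in matplotlib 3.10.9. A gene of the interferon gamma list is not reported here.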

Additional observations from a re-analysis of the deposited data

How the results depend on the processing

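With 2 libraries per group, many differences between groups that do not overlap were below what could be called, and counts of called members moved with the processing; the causes were not tested. Without the low-count filter, which tests and calls many more genes, the counts were 5 (Arid1a KO against WT at 9 days), 9 (at 30 days), 5 (under the agonist), 4 (Arid1a/b DKO against WT), 4 (WT at 30 against 9 days), 2 (Arid1a KO at 30 against 9 days) and 6 (tumours against WT). All genes called in these comparisons numbered 1018, 942, 2468, 5604, 938, 705 and 7884, in that order. With the filter they numbered 101, 92, 883, 4710, 4, 2 and 6667. With DESeq2 the called members were 4 at 9 days and 6 at 30 days between Arid1a KO and WT, and 2 (WT) and 1 (Arid1a KO) between 30 and 9 days. All genes called there numbered 480, 412, 275 and 106, in that order. With only the libraries compared, 195 and 0 of all genes were called between Arid1a KO and WT at 9 and 30 days. The called members were 3 and 0. They were 1 for WT at 30 against 9 days (69 of all genes) and 5 for tumours against WT (5193 of all genes). Leaving out single libraries gave 0 to 1 (Arid1a KO against WT at 9 days), 0 to 4 (at 30 days), 0 to 1 (under the agonist), 1 to 3 (Arid1a/b DKO against WT), 2 to 4 (Arid1a/b DKO against Arid1a KO), 0 to 1 (Arid1a KO at 30 against 9 days) and 5 to 9 (tumours against Arid1a KO).

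The labels do not say that a replicate number marks a shared animal or batch, and 12 of 28 pairs of groups had a correlation of deviations over 0.1, with a range from -0.11 to 0.36. Among the 4 groups of 30 days all 6 pairs were over 0.1 (0.168 to 0.356), a hint from the data that the numbers there go together. With the replicate number as a block the count for tumours against WT was 5, that for Arid1a KO against WT at 30 days was 3, with Gbp2 added (edgeR adjusted p = 0.0368), and the log2 fold change of Psmb9 in Arid1a/b DKO against WT was -0.012. The block left the counts of the other comparisons within 1.5 times.

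No called member changed sign. Among members that were not called, with the 30-day WT livers alone the log2 fold changes of Gbp2 and Gbp6 in tumours were 0.38 and 0.39. Leaving out single libraries gave log2 fold changes from -0.50 to 0.13 for Iigp1 in Arid1a KO against WT under the agonist. For Arid1a/b DKO against WT the ranges were -0.20 to 0.55 (Gbp3), -0.52 to 0.85 (Gbp6), -0.11 to 0.59 (Gbp7), -0.034 to 1.51 (Irgm1), -0.72 to 0.11 (Psmb8) and -0.17 to 0.22 (Psmb9), and against Arid1a KO -0.48 to 0.071 (Gbp2) and -0.72 to 0.83 (Irgm1). For tumours against WT they were -1.08 to 0.48 (Gbp6) and -0.52 to 0.47 (Psmb9). Over all members and alternatives of the 7 comparisons of genotypes and tumours, 717 values kept direction and side of the threshold, 49 passed it newly, 35 no longer passed it and 19 changed sign.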
